A study of Mus musculus with 12 samples.

Results

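The genes described are the mouse p53 gene Trp53 and 9 genes of its network: the feedback regulators Mdm2, Mdm4 and Ccng1, the cell cycle arrest genes Cdkn1a and Zmat3, the growth control gene Sesn1, and the apoptosis genes Bax, Bbc3 and Pmaip1. They were picked by gene symbol, and each of the 10 symbols stood in 1 row of a count table with 49164 filled rows. All 10 passed the filter on low counts, as did 17697 genes in all. On the GENCODE M21 annotation, Trp53 and Ccng1 lie on chromosome 11, Mdm2 and Sesn1 on 10, Bax and Bbc3 on 7, Mdm4 on 1, Zmat3 on 3, Cdkn1a on 17 and Pmaip1 on 18. RNA had been sequenced from nephron progenitors sorted by GFP from fetal mouse kidneys at E17.5, in 12 libraries of 1 litter each, 4 in each of 3 maternal arms. The arms are called K, BHB and normal after the library titles. The titles and the treatment field of the labels contradict each other for the treated arms. Libraries titled as ketogenic (K) carry a normal diet with added β-hydroxybutyrate, a ketone body, in the treatment field, and libraries titled as β-hydroxybutyrate (BHB) carry the ketogenic diet there. K and BHB therefore name sets of libraries and not diets. The normal arm carries the normal diet in both fields. Diets ran from conception to E17.5, and wild-type CD1 mothers and transgenic fathers were 8 to 10 weeks old. In all 3 arms the embryos were heterozygous for Tg(Six2-EGFP/cre), in which Six2 regulatory DNA drives a GFP-Cre fusion in the cap mesenchyme, so no arm is free of the transgene. Cells of a whole litter were pooled with no separation by sex, and RNA came from 50000 to 100000 cells a library. The series asks how maternal ketosis affects fetal kidney development.

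p53 is a transcription factor that is held at a low level by continuous degradation. MDM2 is the ubiquitin ligase that marks it for degradation, MDM4 (MDMX) binds and restrains it, and p53 itself activates Mdm2, which closes a feedback loop. When damage or stress stabilises the protein, it activates genes of cell cycle arrest, above all Cdkn1a, and genes of the mitochondrial route to apoptosis, among them Bax, Bbc3 (PUMA) and Pmaip1 (NOXA). In the mouse kidney, both loss of p53 and its overactivity after loss of Mdm2 in the nephron progenitors are known to deplete the progenitor pool. Because p53 is controlled mainly as a protein, the level of its mRNA and its activity are separate quantities, and transcripts alone were measured here.

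The promoter windows of the members were searched for the p53 consensus, to show where the network's own response element stands next to a transcription start. The consensus is a pair of decamers, each made of 3 purines, C, A or T, A or T, G and 3 pyrimidines. It was required without a spacer, with the central C, A or T, A or T and G of each decamer intact, and with at most 3 of the 20 letters off. As the motif is its own reverse complement, one search covers both strands and matches are counted once each. RefSeq windows of build GRCm38.p6, from 250 bases before to 50 bases after a gene's start, were at hand for 8 of the 10 members, in 13 windows. Of the members, 3 held a match in 1 window each. The 150 bases of that window just before the gene's start are shown for them, 5′ to 3′ on the plus strand, with the matched letters in capitals.
Cdkn1a, chr17:29090829-29090978: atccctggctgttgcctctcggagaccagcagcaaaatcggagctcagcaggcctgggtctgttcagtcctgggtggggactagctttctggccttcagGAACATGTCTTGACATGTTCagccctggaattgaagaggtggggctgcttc
Bbc3, chr7:16309433-16309582: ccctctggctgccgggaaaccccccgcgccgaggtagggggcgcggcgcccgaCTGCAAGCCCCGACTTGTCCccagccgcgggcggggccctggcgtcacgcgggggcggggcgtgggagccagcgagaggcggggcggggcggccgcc
Trp53, chr11:69580209-69580358: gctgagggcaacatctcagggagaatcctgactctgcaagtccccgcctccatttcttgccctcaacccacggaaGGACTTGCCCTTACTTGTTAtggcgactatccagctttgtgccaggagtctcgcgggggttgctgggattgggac
Cdkn1a has 2 windows and Bbc3 has 3, 1 for each annotated start, and in both genes the match is in the most upstream window and in no other. The Cdkn1a match begins 51 bases before that start and has 1 letter off. The match of Bbc3 begins 97 bases before its most upstream start and that of Trp53 75 bases before its single start, with 3 letters off each. Of all 32851 windows in the set, 188 (0.572%) held a match with at most 3 letters off and 18 (0.0548%) one with at most 1. A match is a run of letters and not a measured binding site, and windows without one say nothing about sites farther away.

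Libraries held 7532784 to 12276119 counts, so 1 count was worth 0.0813 to 0.127 counts after scaling to a common library size (CPM), and the members ranged from 20 counts (Pmaip1) to 2273 (Mdm4) in a library. Levels are CPM scaled by TMM, and differences are log2 fold changes ± SE from edgeR's quasi-likelihood test fitted to all 12 libraries, with p-values adjusted by Benjamini-Hochberg over 17697 genes and called at 0.05. The markers of the sorted population were detected as a set in all 12 libraries, at unequal levels. Of the 14 progenitor markers, 1 had 0 counts in K 2 and 1 had 0 counts in K 3. Their summed level was 1949 to 3234 CPM in K, 2243 to 3277 in BHB and 3120 to 3308 in normal. Markers of other cells were detected too, and K 3, K 4, BHB 1 and BHB 2 stood apart. Their progenitor markers summed to 1949 to 2687 CPM, below the 2939 to 3308 of the other 8 libraries. Their distal tubule and loop markers summed to 2094 to 4023 CPM, against 240.2 to 1030 in the other 8 libraries, and their podocyte markers to 475.1 to 1118 against 156.8 to 344.1. Ureteric markers came to 546.4 to 856.2 CPM in those 4 against 133.6 to 265.3, and endothelial markers to 119.3 to 349.8 against 18.24 to 82.09. The sums for proximal tubule, early nephron, stroma, leukocytes and erythroid cells overlapped between those 4 libraries and the other 8, but single libraries stood out. K 3 and K 4 had the highest proximal tubule sums (3319 and 3657 CPM, against at most 1724 in any other library). BHB 1 and BHB 2 were at 1492 and 829.7 CPM, and normal at 272.8 to 1544. BHB 4 had the highest leukocyte sum (177.7 CPM, against at most 71.49 in any other library) and BHB 1 the highest stroma sum (733.7 CPM, against at most 425.1). All markers of these lists were detected in at least 1 library. A score over 6 of the lists (mean log2 CPM of proximal, distal and loop, podocyte, ureteric, endothelial and leukocyte markers) averaged 4.51 ± 1.03 in K, 4.29 ± 0.65 in BHB and 3.03 ± 0.45 in normal (SD, n = 4 each). By a two-sided exact permutation test the score in K gave p = 0.0571 and that in BHB p = 0.0286, each set against normal (0.114 and 0.0858 after adjustment over 6 tests), and 4 libraries against 4 can reach no p below 0.0286. The mean log2 CPM of the progenitor list was 6.26 ± 0.33 in K, 6.40 ± 0.23 in BHB and 6.64 ± 0.08 in normal, with an exact permutation p of 0.0286 for K and 0.114 for BHB, each set against normal (0.0858 and 0.171 after the same adjustment). For every member whose level in the 4 libraries stood apart or whose difference changed sign without them against normal, and for the gene lists, values are also given without them, in fits that leave 2 K, 2 BHB and 4 normal libraries. In RNA from the pooled sorted cells of a litter, fewer cells of a type and less RNA per cell cannot be told apart.

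None of the 10 members passed the test in any comparison. In K against normal, in BHB against normal, in K against BHB and in both treated arms against normal, 0 of 10 were called, as were 0% of all genes. An unadjusted p under 0.05 was reached by 2 members in K against normal (Bax and Trp53; 19.8% of all genes), by 1 in BHB against normal (Pmaip1; 11.8%), by 1 in K against BHB (Bax; 8.23%) and by 1 in both treated arms against normal (Trp53; 18.8%). These shares are near those of all genes. DESeq2 called 209, 84, 10 and 196 genes in the same 4 comparisons and no member. In a fit of K and normal alone with replicate numbers as a block, edgeR called 391 genes and no member. The median log2 difference over the 10 members was -0.007 in K against normal, -0.076 in BHB against normal and 0.029 in K against BHB, beside 0.005, 0.016 and 0.011 over all genes. Of the members, 5 were higher and 5 lower in K than in normal, where 50.6% of all genes were higher, and 3 were higher and 7 lower in BHB than in normal, where 52.8% were higher. Between K and BHB, 6 members were higher and 4 lower in K, where 52.4% of genes were higher. The comparisons of K and of BHB with normal share the 4 normal libraries.

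**Figure D1:**
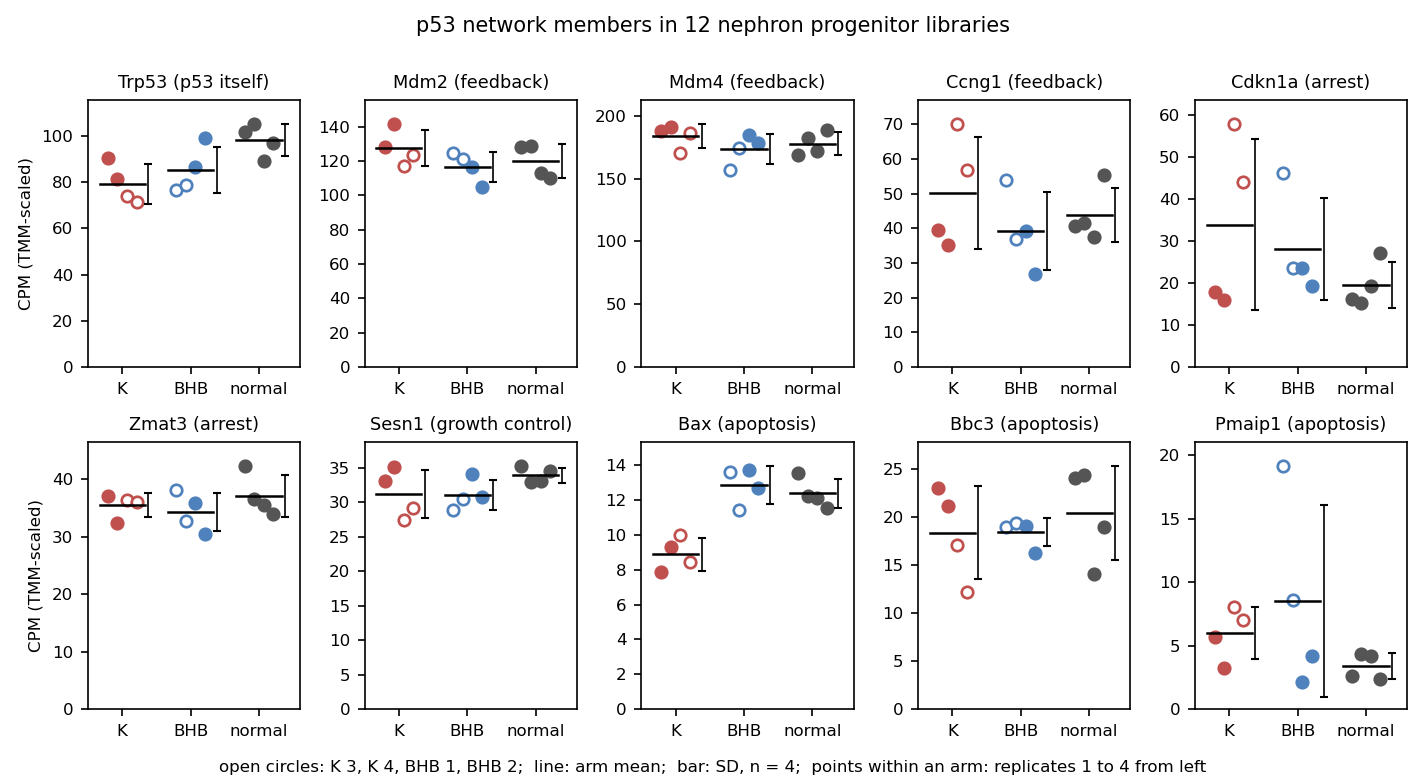
Level of each member in CPM (vertical axes, each starting at 0) in the 4 K, 4 BHB and 4 normal libraries, replicates 1 to 4 from left to right; lines are arm means, bars are SD (n = 4), and open circles are K 3, K 4, BHB 1 and BHB 2. Bax sits at 7.86 to 9.98 in K, below every BHB and normal library, while Cdkn1a and Pmaip1 spread widely within K and BHB.

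Trp53, the gene of p53 itself, had 90.6, 81.2, 74.1 and 71.3 CPM in K 1 to 4, then 76.6, 78.9, 86.5 and 99.01 CPM in BHB 1 to 4, and 101.5, 105.0, 89.0 and 96.9 CPM in normal 1 to 4. Of the 4 K libraries, 3 lay below every normal library and K 1 lay within their range, and BHB overlapped normal through BHB 4. The difference was -0.31 ± 0.10 in K against normal (95% interval -0.52 to -0.09, adjusted p = 0.221) and -0.20 ± 0.10 in BHB against normal (-0.42 to 0.01, adjusted p = 0.431). K and BHB differed by -0.10 (-0.32 to 0.11, adjusted p = 0.816). Both arms together stood at -0.26 ± 0.09 against normal (-0.44 to -0.07, unadjusted p = 0.0108, adjusted p = 0.252). The 4 libraries with the highest markers of other cells, at 71.3 to 78.9 CPM, all lay below the other 8, at 81.2 to 105.0 CPM. Without them, Trp53 was at -0.18 in K against normal (adjusted p = 0.595) and -0.08 in BHB against normal (adjusted p = 0.773). The same 4 libraries had the lowest progenitor marker sums and the highest marker score, and the part of either in the difference was not tested beyond this.

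Mdm2, the ubiquitin ligase that is both regulator and target of p53, had 128.5, 141.4, 116.9 and 123.5 CPM in K, 124.8, 121.0, 116.6 and 104.7 CPM in BHB, and 128.5, 129.0, 113.1 and 109.9 CPM in normal libraries 1 to 4. The 3 arms overlapped throughout. Mdm2 stood at 0.09 ± 0.08 in K against normal (95% interval -0.09 to 0.27, adjusted p = 0.565) and at -0.04 ± 0.08 in BHB against normal (-0.22 to 0.14, adjusted p = 0.831). Mdm4, the second restraint on p53, had 188.1, 191.0, 170.4 and 186.5 CPM in K, 157.3, 174.5, 184.9 and 178.1 CPM in BHB, and 168.5, 182.2, 172.3 and 188.6 CPM in normal. Its interval was -0.10 to 0.20 in K against normal (adjusted p = 0.703) and -0.18 to 0.11 in BHB against normal (adjusted p = 0.823), and the estimate in BHB was -0.03, or 0.03 without the 4 libraries. Ccng1 encodes cyclin G1, a p53 target that recruits a phosphatase to MDM2. It had 39.4, 35.1, 69.95 and 56.7 CPM in K, 54.0, 36.8, 39.2 and 26.8 CPM in BHB, and 40.8, 41.5, 37.6 and 55.3 CPM in normal. K 3 was its highest library and BHB 4 its lowest, and all arms overlapped. Its difference from normal was 0.20 ± 0.25 in K (-0.34 to 0.74, adjusted p = 0.66) and -0.15 ± 0.25 in BHB (-0.69 to 0.38, adjusted p = 0.776), and without the 4 libraries the values were -0.22 (adjusted p = 0.799) and -0.39 (adjusted p = 0.522). Single libraries moved them too, but less: the K value was 0.00 without K 3, and the BHB value -0.35 without BHB 1 and -0.01 without BHB 4, the library with the highest leukocyte marker sum.

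Cdkn1a encodes p21, the cyclin-dependent kinase inhibitor through which p53 arrests the cell cycle. It had 17.9, 16, 57.8 and 44.0 CPM in K 1 to 4, then 46.2, 23.7, 23.5 and 19.3 CPM in BHB 1 to 4, and 16.3, 15.3, 19.3 and 27.2 CPM in normal 1 to 4. K 3, K 4 and BHB 1 were above all other libraries, while K 1 and K 2 lay within the normal range. Arm means were 33.95 ± 20.4 CPM in K, 28.2 ± 12.2 in BHB and 19.5 ± 5.39 in normal (SD, n = 4 each). The difference of 0.80 ± 0.43 in K against normal had a 95% interval of -0.15 to 1.74 (adjusted p = 0.309), and that of 0.53 ± 0.43 in BHB against normal one of -0.41 to 1.48 (adjusted p = 0.56). Without the 4 libraries the values were -0.19 (adjusted p = 0.861) and 0.14 (adjusted p = 0.853). K 3 alone, when left out, took the K value to 0.41, and BHB 1 alone took the BHB value to 0.19. The 3 high libraries were among those with the highest marker score (5.43 in K 3, 5.35 in K 4 and 5.13 in BHB 1), and the fourth of these, BHB 2 (4.47), was at 23.7 CPM. The part of other cells in the Cdkn1a values was not tested beyond leaving these libraries out.

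Zmat3, an RNA-binding zinc finger protein and p53 target, had 37.1, 32.5, 36.5 and 36.1 CPM in K, 38.2, 32.7, 35.9 and 30.5 CPM in BHB, and 42.3, 36.6, 35.5 and 34.0 CPM in normal. Unlike Cdkn1a it kept a narrow range in every arm, without high values in K 3, K 4 or BHB 1 that left the range of the other libraries. Its difference was -0.06 ± 0.09 in K against normal (adjusted p = 0.728) and -0.11 ± 0.09 in BHB against normal (adjusted p = 0.579). Sesn1, a stress-induced inhibitor of mTORC1 signalling, had 33.04, 35.2, 27.5 and 29.1 CPM in K, 28.8, 30.4, 34.1 and 30.8 CPM in BHB, and 35.2, 32.96, 33.1 and 34.5 CPM in normal. It resembled Trp53 in one respect: its levels in K 3, K 4, BHB 1 and BHB 2, 27.5 to 30.4 CPM, lay below all other libraries, at 30.8 to 35.2 CPM. Sesn1 stood at -0.12 ± 0.09 in K against normal (-0.32 to 0.08, adjusted p = 0.458) and at -0.13 ± 0.09 in BHB against normal (-0.33 to 0.07, adjusted p = 0.515), and at 0.02 and -0.06 without the 4 libraries.

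**Figure D2:**
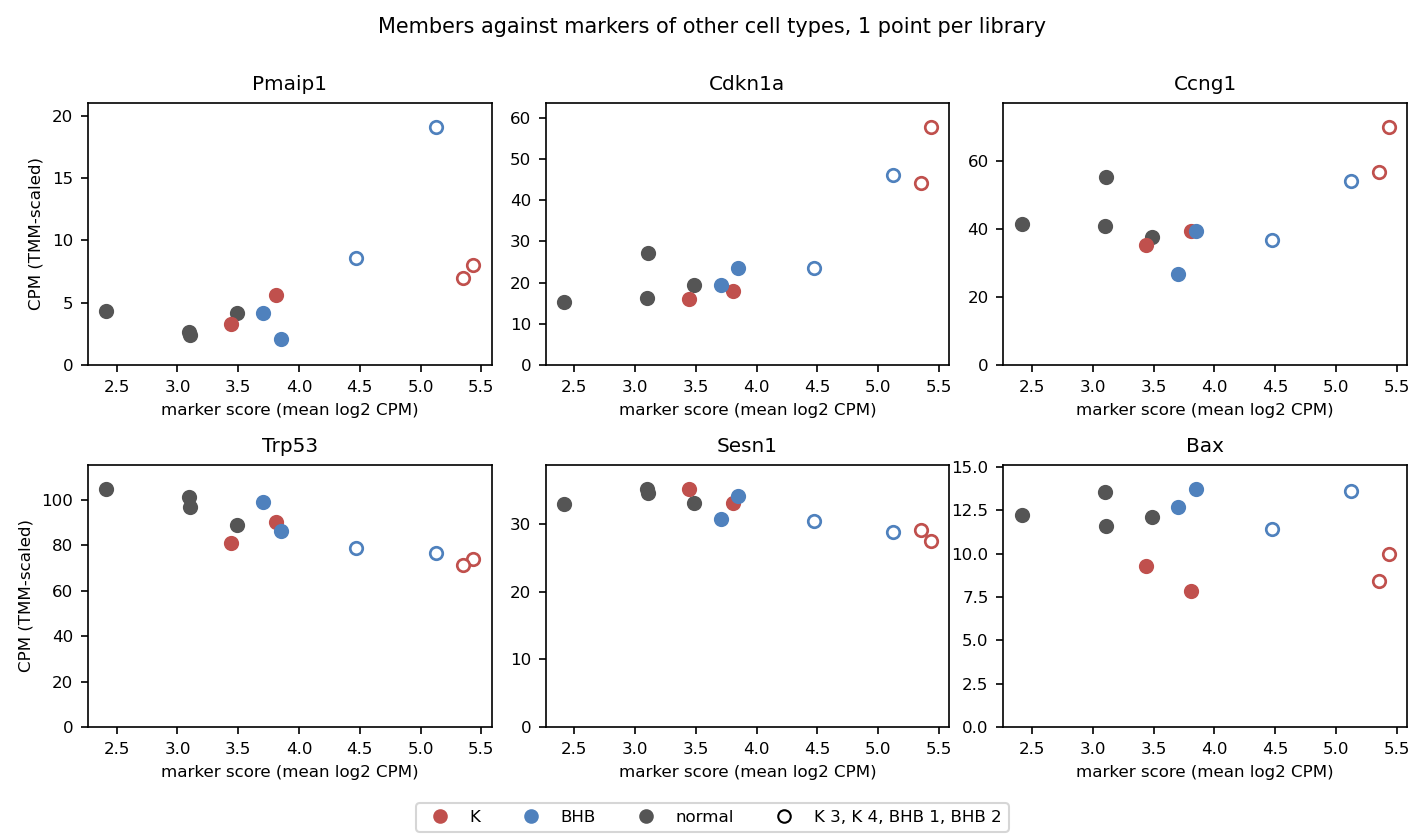
Level of members in CPM (vertical axes) against the marker score of other cell types (mean log2 CPM, horizontal axes) in the 12 libraries, coloured by arm, with open circles for K 3, K 4, BHB 1 and BHB 2. The 4 open circles, at scores of 4.47 to 5.43, hold the 4 lowest Trp53 levels and the 4 highest Pmaip1 levels.

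Bax, the effector that opens the outer mitochondrial membrane in apoptosis, gave the clearest separation of the 10. It had 7.86, 9.29, 9.98 and 8.45 CPM in K 1 to 4, then 13.6, 11.4, 13.8 and 12.7 CPM in BHB 1 to 4, and 13.6, 12.3, 12.1 and 11.6 CPM in normal 1 to 4. Every K library was below every BHB library and every normal library. In K against normal the difference was -0.48 ± 0.12 (95% interval -0.73 to -0.22), a fold of 0.718, with an unadjusted p of 0.00143 that ranked 76th of all genes and an adjusted p of 0.221. K against BHB gave -0.53 ± 0.12 (-0.79 to -0.28), a fold of 0.691, with an unadjusted p of 0.000611 at rank 15 and an adjusted p of 0.53. BHB against normal gave 0.06 ± 0.12 (-0.20 to 0.31, adjusted p = 0.833). Bax was the 1 member of 10 whose libraries did not overlap in K against normal, where 5.26% of all genes were lower without overlap, 4.87% higher and 10.1% apart in either direction. It was also the 1 member apart in K against BHB, where 2.31% of genes were lower without overlap, 1.76% higher and 4.06% apart either way. No member was apart in BHB against normal (3.95% of genes higher, 4.67% lower, 8.62% either way) or in both treated arms against normal (1.86% of genes). In the 8 libraries other than K 3, K 4, BHB 1 and BHB 2, that is in 2 K, 2 BHB and 4 normal libraries, Bax was at -0.52 in K against normal (adjusted p = 0.375) and at -0.62 in K against BHB (adjusted p = 0.184). Bax was counted 78 to 169 times a library, and in GENCODE M21 it shares 192 exon bases with Gm45808 on the same strand, which had no counts.

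**Figure D3:**
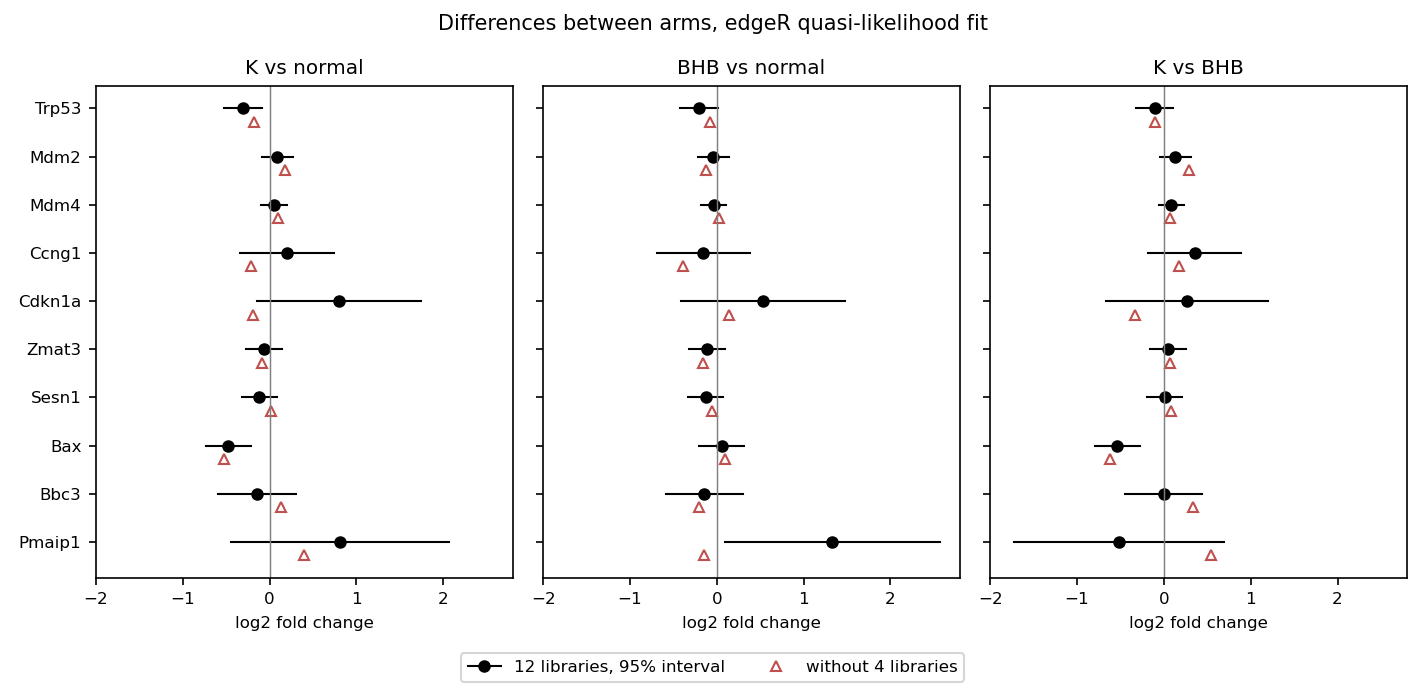
Log2 fold change of each member (horizontal axes) in K against normal, BHB against normal and K against BHB; black points are edgeR estimates from 12 libraries with 95% intervals, and open triangles are estimates without K 3, K 4, BHB 1 and BHB 2. Bax lies at -0.48 and -0.53 in the comparisons of K, and the triangles of Cdkn1a and Pmaip1 stand far from their points against normal.

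Bbc3 and Pmaip1 encode PUMA and NOXA, BH3-only proteins that act upstream of Bax by binding anti-apoptotic BCL2 relatives. Bbc3 had 23.1, 21.2, 17.1 and 12.2 CPM in K, 19.0, 19.4, 19.0 and 16.3 CPM in BHB, and 24.1, 24.4, 14.1 and 19.0 CPM in normal. Its arms overlapped, with intervals of -0.60 to 0.30 in K against normal (adjusted p = 0.703) and -0.59 to 0.30 in BHB against normal (adjusted p = 0.745). The estimate in K was -0.15, or 0.13 without the 4 libraries. Pmaip1, the member with the lowest mean CPM in each arm, had 5.64, 3.26, 8.05 and 6.99 CPM in K, 19.1, 8.59, 2.12 and 4.19 CPM in BHB, and 2.64, 4.32, 4.16 and 2.39 CPM in normal. BHB 1 stood far above the rest, and K 3, K 4, BHB 1 and BHB 2, at 6.99 to 19.1 CPM, were all above the other 8 libraries, at 2.12 to 5.64 CPM. The difference was 1.33 ± 0.57 in BHB against normal (95% interval 0.09 to 2.57, unadjusted p = 0.0382, adjusted p = 0.418) and 0.81 ± 0.57 in K against normal (-0.44 to 2.07, adjusted p = 0.423). Without BHB 1 the BHB value was 0.54, and without the 4 libraries it was -0.15 (adjusted p = 0.921), while that in K was 0.39 (adjusted p = 0.81). Pmaip1 thus joined Trp53 and Sesn1 as members whose 4 libraries with the highest marker score stood outside the range of the other 8, 1 of 10 members above it (11.3% of all genes) and 2 of 10 below it (6.32%). The 3 apoptosis genes differed in sign: of Bax, Bbc3 and Pmaip1, 2 were lower and 1 higher in K than in normal, and 1 was lower and 2 higher in BHB than in normal.

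Per kilobase of exon in GENCODE M21, Mdm2 and Trp53 had the highest mean levels in each arm. In K, Mdm2 was at 25.1 ± 2.04 and Trp53 at 19.6 ± 2.12 CPM per kb, in BHB at 23 ± 1.72 and 21.1 ± 2.49, and in normal at 23.6 ± 1.98 and 24.3 ± 1.71 (SD, n = 4 each). The first place thus went to Mdm2 in K and BHB and to Trp53 in normal, and the ranges of this pair overlapped in BHB and normal, while in K the lowest Mdm2 library (23 CPM per kb) exceeded the highest Trp53 library (22.4). Ccng1 (14.3 ± 4.59 in K, 11.2 ± 3.2 in BHB and 12.5 ± 2.24 in normal) and Mdm4 (12.4 ± 0.63, 11.7 ± 0.79 and 12 ± 0.62) came next and overlapped in every arm. Cdkn1a was at 9.56 ± 5.75 in K, 7.93 ± 3.43 in BHB and 5.5 ± 1.52 in normal, overlapping Bbc3 (8.65 ± 2.27, 8.67 ± 0.68 and 9.59 ± 2.3) and Sesn1 (7.83 ± 0.89, 7.79 ± 0.56 and 8.52 ± 0.28) in K and BHB. Bax was at 5.64 ± 0.59 in K, 8.17 ± 0.68 in BHB and 7.86 ± 0.54 in normal CPM per kb. Zmat3, at 3.11, 3 and 3.24, and Pmaip1, at 2.19, 3.11 and 1.24 CPM per kb in K, BHB and normal, were lowest, and they overlapped in K and BHB.

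Within each arm the spread was widest for Cdkn1a and Pmaip1. The coefficient of variation of Cdkn1a was 60.1% in K, 43.3% in BHB and 27.6% in normal, and that of Pmaip1 34.5%, 89.1% and 29.7%. Members were also set against each other over the 8 libraries other than K 3, K 4, BHB 1 and BHB 2, because a value pooled over libraries that stand apart would describe that split. Over those 8, Pearson's r of log2 CPM ran from -0.7 to 0.73 across the 45 pairs, and no pair passed adjustment (smallest adjusted permutation p = 0.747 for Pearson's r and 0.625 for Spearman's rho). The profiles nearest to Trp53 over the 12 libraries, by the root mean square difference of centred log2 CPM, were those of Polr2e (0.04), Dhx37 (0.054) and Sephs1 (0.059), against a median of 0.222 over 10898 genes. Nearest to Mdm2 were Rbm39 (0.044), Cep43 (0.049) and Rlim (0.057), against a median of 0.207. Cdkn1a had Gnpda1 (0.172), Tmem51 (0.172) and Slc17a5 (0.175) nearest to it, against a median of 0.663. None of these neighbours is another member. These ranks also contain the split between the 4 libraries and the rest. Over the other 8 libraries, Polr2e and Dhx37 ranked 2 and 4 for Trp53 while Sephs1 ranked 73, and the nearest to Mdm2 were Zfp955a (0.022), Pak1ip1 (0.031) and Peli1 (0.031). Those nearest to Cdkn1a over the 8 libraries were Cth (0.105), Gcdh (0.106) and 1110032A03Rik (0.116), and Gnpda1, Tmem51 and Slc17a5 ranked 87, 16 and 127.

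The wider network was read from 7 lists, in none of which a gene was called in any comparison. Among regulators of p53, 20 of 23 listed genes were tested. Of these, 6 were higher and 14 lower in K than in normal (median log2 difference -0.07), and 5 higher and 15 lower in BHB than in normal (median -0.08). Trp53rka, a kinase that phosphorylates p53, was at 10.8 ± 1.55 CPM in K, 12.5 ± 1.59 in BHB and 14.6 ± 1.59 in normal (adjusted p = 0.252 for both treated arms against normal, equal to the smallest in that comparison). Trp53inp1, a p53-induced nuclear cofactor, was at 41.6 ± 10.5 in K, 46.2 ± 6.84 in BHB and 55.8 ± 4.82 in normal (adjusted p = 0.252). Ppp1r13b, encoding the ASPP1 protein that steers p53 toward apoptotic targets, was at 33.1 ± 20.9 in K, 32.5 ± 13.1 in BHB and 17.7 ± 2.72 in normal (adjusted p = 0.258). Without K 3, K 4, BHB 1 and BHB 2, the regulators had 11 of 20 higher and 9 lower in K (median 0.007). In BHB against normal, 6 were then higher and 14 lower (median -0.103), so the lower values there remained. Ppp1r13b was at -0.11 in K and 0.28 in BHB against normal, and Trp53inp1 at -0.16 and -0.25. Trp53rka was at -0.52 in K (adjusted p = 0.375) and at -0.15 in BHB (adjusted p = 0.77).

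Other arrest targets had a median of 0.43 in K against normal, with 9 of 11 tested higher, and of 0.14 in BHB against normal, with 8 of 11 higher, beside medians of 0.005 and 0.016 over all genes. Plk3, a stress-activated polo-like kinase, was at 23.3 ± 0.76 CPM in K, 22.4 ± 9.36 in BHB and 15.6 ± 1.16 in normal, and every K library exceeded every normal library (0.58 ± 0.22, adjusted p = 0.221). Sfn, the 14-3-3 sigma protein of the G2 checkpoint, was at 4.13 ± 2.59 in K, 3.59 ± 3.51 in BHB and 1.42 ± 0.43 in normal, also without overlap of K and normal (1.53 ± 0.72, adjusted p = 0.261). These were the 2 of 11 arrest targets higher without overlap in K against normal, where 4.87% of all genes were. For Sfn the gap was narrow, with 2.012 CPM in its lowest K library and 1.962 in its highest normal library. Its counts were 21 to 71 in K and 11 to 20 in normal. Btg2, an antiproliferative p53 target, was at 333.7 ± 50.6 in K, 271.9 ± 103 in BHB and 247.2 ± 34.9 in normal (adjusted p = 0.29 for K against normal). In the fit without K 3, K 4, BHB 1 and BHB 2, the arrest list had 8 of 11 higher in K than in normal (median 0.24) and 2 of 11 higher in BHB than in normal (median -0.13), so its sign in BHB turned. Plk3 was then at 0.55 in K (adjusted p = 0.198) and 0.08 in BHB (adjusted p = 0.859) against normal, and Sfn at 0.62 (adjusted p = 0.703) and -0.62 (adjusted p = 0.654). Btg2 was at 0.39 in K (adjusted p = 0.584) and at -0.32 in BHB (adjusted p = 0.578).

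Other apoptosis targets were more often lower, with 4 of 14 higher and 10 lower in K than in normal (median -0.15), and 5 higher and 9 lower in BHB than in normal (median -0.07). Aen, an exonuclease of apoptotic DNA breakdown, was at 27.0 ± 3.15 CPM in K, 28.8 ± 5.13 in BHB and 39.4 ± 8.02 in normal. Its differences from normal were -0.55 ± 0.16 in K, without overlap (adjusted p = 0.221), and -0.45 ± 0.16 in BHB, with overlap (adjusted p = 0.417). Of the 14 apoptosis targets, 3 were lower without overlap in K against normal, where 5.26% of all genes were. Eda2r, a death receptor family member, was at 3.20 ± 0.49 in K, 3.14 ± 1.02 in BHB and 4.83 ± 0.38 in normal, and all 8 treated libraries lay below all normal ones (-0.60 ± 0.20, adjusted p = 0.252), as 0.831% of all genes did. Fas, the classical death receptor, was low but higher in the treated arms, at 0.978 ± 0.29 in K, 1.096 ± 0.82 in BHB and 0.464 ± 0.25 in normal (adjusted p = 0.255). In the list of BCL2 family genes and caspases, 8 of 19 were higher and 11 lower in K than in normal (median -0.02), and 7 higher and 12 lower in BHB (median -0.05). Of these 19, 2 were lower without overlap in K against normal (5.26% of all genes) and 3 in BHB against normal (4.67%). Higher without overlap were 0 in K (4.87%) and 0 in BHB (3.95%). Bcl2, which restrains Bax, was at 154.0 ± 28.3 in K, 152.2 ± 21.8 in BHB and 189.7 ± 2.94 in normal, and again all treated libraries were below all normal ones (-0.31 ± 0.11, adjusted p = 0.252). Bmf, a BH3-only gene, was at 46.7 ± 3.65, 46.6 ± 0.66 and 53.3 ± 5.88 in K, BHB and normal, and Diablo, which releases caspases from their inhibitors, at 12.4 ± 0.84, 13.5 ± 0.93 and 15.1 ± 0.96 (adjusted p = 0.252 for each). Without the 4 libraries, 13 apoptosis targets were tested, 3 of them higher and 10 lower in K than in normal (median -0.09) and 6 higher and 7 lower in BHB (median -0.08). Eda2r was then at -0.48 in K and -0.97 in BHB against normal (adjusted p = 0.65 and 0.364), Aen at -0.41 and -0.32, and Bcl2 at -0.08 and -0.21.

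**Figure D4:**
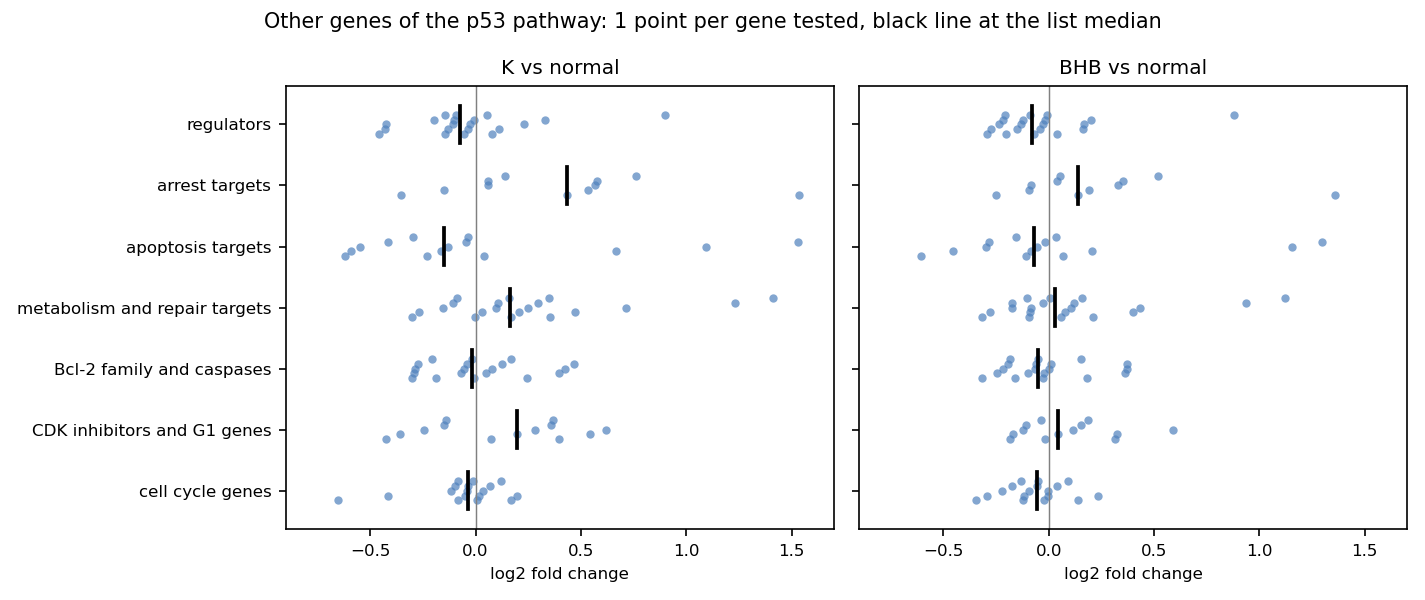
Log2 fold change of every tested gene of the 7 lists (points) in K against normal and in BHB against normal (horizontal axes), one row a list, with the list median as a bar. In K against normal the arrest targets have a median of 0.43 and the apoptosis targets one of -0.15, and the points of both lists span 0.

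Metabolism and repair targets had 14 of 20 higher and 6 lower in K than in normal (median 0.16) and 11 higher and 9 lower in BHB (median 0.03). Cd82, a tetraspanin, was at 26.9 ± 18.3 CPM in K, 19.2 ± 9.07 in BHB and 10.1 ± 1.92 in normal, and Sesn3, a relative of Sesn1, at 189.8 ± 37.4, 183.8 ± 26.0 and 228.8 ± 17.4 (adjusted p = 0.252 for each, both treated arms against normal). Fdxr, a mitochondrial reductase, was at 13.6 ± 1.39, 12.3 ± 0.70 and 11.1 ± 1.797 in K, BHB and normal (adjusted p = 0.293). Among cyclin-dependent kinase inhibitors and their G1 partners, 8 of 13 were higher and 5 lower in K than in normal (median 0.20), and 7 higher and 6 lower in BHB (median 0.04). Cdk6 was at 37.4 ± 10.6 in K, 30.2 ± 5.13 in BHB and 24.3 ± 3.97 in normal, and its relative Cdk4 at 211.6 ± 38.4, 241.5 ± 34.6 and 271.5 ± 17.6, so the differences of these G1 kinases had opposite signs (adjusted p = 0.252 and 0.256). Ccnd1, encoding cyclin D1 and also in the early nephron marker list, was at 168.4 ± 25.2, 174.0 ± 34.8 and 138.7 ± 10.3 (adjusted p = 0.255). Of 17 cell cycle genes known to be repressed downstream of p53 and p21, 7 were higher and 10 lower in K than in normal (median -0.03), and 4 higher and 13 lower in BHB (median -0.06). Ccne2 and Ccne1, the E cyclins of the G1 to S transition, were at 16.5 ± 5.28 and 18.5 ± 7.90 CPM in K, 17.3 ± 2.59 and 23.8 ± 5.36 in BHB, and 22.0 ± 2.64 and 29.1 ± 5.61 in normal (adjusted p = 0.265 and 0.292). Cenpf, a centromere protein of G2 and M phase, was at 195.8 ± 47.4, 179.5 ± 44.2 and 209.3 ± 18.8 (adjusted p = 0.609). Without K 3, K 4, BHB 1 and BHB 2, 14 of these 17 genes were higher and 3 lower in K than in normal (median 0.07), a turn of sign, and 5 were higher and 12 lower in BHB (median -0.04). The metabolism and repair list also turned, with 8 of 20 higher in K (median -0.03) and 8 of 20 in BHB (median -0.06), and Cd82 was at 0.21 in K and 0.25 in BHB against normal. Of the G1 genes, 9 of 13 were higher in K (median 0.10) and 8 of 13 in BHB (median 0.04), and of the BCL2 family and caspases 8 of 19 in K (median -0.05) and 4 of 19 in BHB (median -0.07). Cdk6 was then at 0.23 in K and 0.1 in BHB against normal, Cdk4 at -0.15 and 0, and Cdkn1b at 0.21 and -0.15. Ccnd1 was at 0.16 in K (adjusted p = 0.653) and at 0.44 in BHB (adjusted p = 0.173) against normal. No gene of the 7 lists was called in these fits.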

How the data were processed

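Nephron progenitor RNA of 12 litters was sequenced with a SMARTer stranded total RNA kit in single reads of 100 cycles, per the labels' protocols. The submitters' processing notes name cutadapt 2.10, TopHat2 2.1.1, HTSeq 2.01 and DESeq2 1.36.0; the build, the annotation and the strand setting are not given in the sources used, so reads of opposite-strand genes may not be separated. Among members this touches Cdkn1a, 273 of whose exon bases lie opposite AC167363.2 (0 to 5 counts). The deposited table holds raw counts per gene and, per the file headers, a normalized signal for each library; the authors' normalized signal equals the counts divided by 1 factor a library and was used for nothing else. Of 55414 rows, 6250 had blank counts in all 12 libraries and so entered neither library sizes nor tests.

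Counts were filtered with filterByExpr, scaled by TMM and fitted with edgeR 4.0.16 (R 4.3.3, robust quasi-likelihood, 1 mean per arm, 9 residual degrees of freedom), with DESeq2 1.42.0 as an alternative. Intervals use the t quantile. Counts of near-identical copies stay uncertain (Trp53-ps 0 to 6 counts, Mdm4-ps 33 to 60). In simulated counts over 17697 genes, the K against normal test recovered 14% of genes changed 1.5-fold, 32% at 2-fold and 78% at 4-fold.

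The members and lists were chosen with earlier results of these data known. All members are named, as are the 3 genes of each list with the smallest p for both treated arms against normal, and the 3 genes nearest to Trp53, Cdkn1a and Mdm2 among genes with a mean log2 CPM of at least 3. Pooled correlations over 12 libraries were planned and are not given. Deviations of same-numbered K and normal libraries correlated at 0.114, 0.461, 0.338 and 0.238, all above 0.1, which met the bar set for pairing; the block was run as an alternative, and the values printed come from the unpaired fit. Some unlike-numbered K and normal libraries correlated as highly (up to 0.464). Numbers of BHB did not meet the bar (-0.258 to 0.103 with normal).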

Additional observations from a re-analysis of the deposited data

Results flagged for a closer look

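Of 33 groups of 4 libraries examined for a library far from the others, 2 were picked out, and chance picks about 1 in 20 such groups. BHB 1 had 46.2 CPM of Cdkn1a, against 19.3 to 23.7 in the other BHB libraries, a gap of 0.839 of the arm's range. Bbc3 was at 16.27 CPM in BHB 4, against 18.96 to 19.4 in the other BHB libraries, a gap of 0.859 of the range. BHB 4 also had the highest leukocyte marker sum of the 12 libraries (177.7 CPM), and the part of this in the Bbc3 value was not tested.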

How the results depend on the processing

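Each member's difference in each comparison was recomputed under 17 to 19 alternatives, 740 values in all, of which 697 kept the direction, 43 reversed it and none passed the threshold. The smallest adjusted p was 0.0611 for Bax in K against normal (DESeq2; up to 0.508 elsewhere) and 0.0699 for Trp53 (replicate block, arms compared only; up to 0.595). Counts of called genes, 0 in all 4 comparisons, were 209, 84, 10 and 196 with DESeq2 (K against normal, BHB against normal, K against BHB, both against normal). They were 2, 2, 0 and 4 with no filter on low counts, and 12, 5, 36 and 0 with K 3, K 4, BHB 1 and BHB 2 removed. The replicate block called 0 in a fit of all arms, and 391, 0 and 0 in fits of the arms compared, chosen after seeing the data; the block changed no member's call. Leaving out 1 library gave 0 to 4 genes in K against normal (4 without BHB 1) and 0 elsewhere.

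Without K 3, K 4, BHB 1 and BHB 2, signs turned in K against normal for Cdkn1a (-0.19), Bbc3 (0.13), Ccng1 (-0.22) and Sesn1 (0.02), and in BHB against normal for Mdm4 (0.03) and Pmaip1 (-0.15). They turned in K against BHB for Cdkn1a (-0.33), Bbc3 (0.33) and Pmaip1 (0.54), and in both against normal for Cdkn1a (-0.02) and Ccng1 (-0.31). Bbc3 in K against BHB, -0.004 at first, was 0.00 with DESeq2 size factors, 0.02 with no filter and 0.02 with DESeq2, and Mdm4 in both against normal was 0.00 with no filter. The cause was not tested.

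With single libraries left out, K against BHB ran from -0.13 to 0.15 for Bbc3, -0.12 to 0.61 for Cdkn1a, -0.84 to 0.27 for Pmaip1, -0.05 to 0.07 for Sesn1 and 0.00 to 0.10 for Zmat3. K against normal ran from -0.29 to 0.01 for Bbc3 and -0.10 to 0.01 for Zmat3, and BHB against normal from -0.08 to 0.01 for Mdm2 and -0.07 to 0.01 for Mdm4. Both against normal ran from -0.08 to 0.15 for Ccng1, -0.02 to 0.06 for Mdm2 and -0.02 to 0.03 for Mdm4. The marker score difference ran from 1.173 to 1.837 in K and 0.982 to 1.455 in BHB against normal, and -0.088 to 0.576 between K and BHB. Depth limits Pmaip1 most, at 20 to 222 counts.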

Other observations

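Cdkn2a and Trp63, both in the list of p53 regulators, were too low for the test. Cdkn2a, whose ARF product blocks MDM2, had 0 counts in all 4 K libraries, 0 to 1 in BHB and 0 to 3 in normal. Trp63, the p53 relative of epithelial stem cells, had 5 to 25 counts in K, 5 to 11 in BHB and 3 to 10 in normal. Trp73, the other relative, was at 1.72 ± 0.70 CPM in K, 1.93 ± 0.81 in BHB and 2.35 ± 0.36 in normal (SD, n = 4 each; adjusted p = 0.429 for K and 0.672 for BHB against normal, edgeR). Other brakes on p53 were well covered. Ppm1d, the WIP1 phosphatase, was at 33.2 ± 3.22 CPM in K, 32.4 ± 1.06 in BHB and 33.4 ± 2.39 in normal (adjusted p = 0.971 and 0.825), and Usp7, the deubiquitinase of MDM2, at 313.6 ± 31.0, 303.5 ± 17.45 and 337.2 ± 12.2 (adjusted p = 0.442 and 0.434). Every BHB library was below every normal library for Usp7 (277.7 to 314.4 CPM against 323.4 to 347.9). Of the 20 regulators tested, 2 were lower without overlap in BHB against normal (4.67% of all genes) and 1 higher (3.95%). Cop1, another ubiquitin ligase of p53, was at 126.8 ± 18.5 CPM in K, 114.1 ± 6.79 in BHB and 131.7 ± 9.57 in normal (adjusted p = 0.782 and 0.428).

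Over the 8 libraries other than K 3, K 4, BHB 1 and BHB 2, Mdm2 and Bbc3 had the highest correlation of the 45 pairs (r = 0.73, exact permutation p = 0.0382; rho = 0.78, exact permutation p = 0.0295; adjusted p at least 0.625). It was 0.82 without the 2 libraries farthest from the median of Mdm2. Mdm2 and Cdkn1a had the lowest r, at -0.7 (exact permutation p = 0.0497, adjusted p = 0.747), with a rho of -0.8 (exact permutation p = 0.0211, adjusted p = 0.625). Their r was -0.87 without those 2 libraries. These pairs are described because they were the extremes.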
